A study of Mus musculus with 8 samples.

Results

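The early cortical neuron genes are 38 genes that newborn neurons of the developing neocortex use: 14 transcription factors, 3 RNA-binding proteins, 11 genes of the cytoskeleton, 7 genes of the growth cone, synaptic vesicles and signalling, and 3 adhesion molecules. They were taken from a list of names, which was chosen with earlier results of these data known. All 38 were found in both deposited count tables, which list 23420 genes at E11.5 and 78298 at E12.5. RNA was sequenced from the cortex of mouse embryos carrying 1 disrupted copy of Mboat7 (Mboat7+/-) or 2 (Mboat7-/-), at the embryonic stages E11.5 and E12.5. Each genotype is represented by 2 embryos a stage, which makes 8 cortices. Mboat7 encodes a lysophospholipid acyltransferase that puts arachidonic acid into phosphatidylinositol. The knockout is global, so each cell of the embryo carries it, the mice were kept on C57BL/6N, and the controls are heterozygous, not wild-type. Whole cortices were used, so a lower value can come from fewer neurons, from less RNA per neuron or from a different mix of tissue. These cannot be told apart in these libraries.

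The neocortex grows from radial glial cells, which divide at the ventricle and give rise to neurons directly or through intermediate progenitor cells. A cell that leaves the cycle switches on proneural factors first, then neuronal transcription factors, Elav-like RNA-binding proteins and the tubulins, microtubule-binding proteins and neurofilaments of a growing axon. The first neurons of the dorsal telencephalon form the preplate and the deep layers, for which Tbr1, Bcl11b (also called Ctip2), Fezf2 and Sox5 are widely used markers. Synaptic vesicle genes are expressed at a low level at this age, before synapses are common.

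Total counts of the E11.5 cortices lay between 21843330 and 28189771, and those of the E12.5 cortices between 20799311 and 23330432. Levels are given in CPM, a count scaled to a common, normalized library size, and each pair of values has replicate 1 before replicate 2. Emx1, a transcription factor of the dorsal telencephalon, is named here as a check of the tissue. At E11.5 it was at 56.9 and 65.7 CPM in the Mboat7+/- cortices and at 35.8 and 49.6 CPM in those labelled Mboat7-/-. Emx1 was thus lower in both of the latter (log2 fold change -0.525, SE 0.15, edgeR adjusted p = 0.219). At E12.5 it lay between 73.2 and 79.7 CPM. Mboat7 itself did not separate the genotypes as a loss of its transcript would. The E11.5 controls had Mboat7 counts of 700 and 876, and the E11.5 cortices labelled Mboat7-/- had 1103 and 860 (log2 fold change 0.18, SE 0.11, edgeR adjusted p = 0.527). In CPM these were 32.3 and 33.1 against 39.0 and 34.8, both higher, an order found in 23.1% of all genes. At E12.5 the counts were 739 and 782 against 730 and 729 (log2 fold change -0.17, SE 0.10, edgeR adjusted p = 0.958). In CPM these were 35.5 and 36.2 against 31.7 and 32.2, both lower, an order found in 15.2% of all genes. Which part of the gene was removed is not given in the sources used here, so transcript counts may not report on the allele, and every direction below rests on the labels. Xist, the RNA that silences an X chromosome in female cells, had a count of 17875 in the E11.5 Mboat7+/- replicate 1 and of at most 2 in the other 7 cortices.

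At E11.5 the neuron genes lay lower in the cortices labelled Mboat7-/-, and this difference rested on 1 of the 2 cortices. The median log2 fold change (Mboat7-/- over Mboat7+/-) was -0.185 over the 38 genes and -0.006 over the 14935 genes tested. It was below 0 for 33 of the 38, while 51.0% of the genes tested lay below 0. No neuron gene passed a false discovery rate (FDR) of 0.05 in edgeR's quasi-likelihood test, nor did any other gene (0.0% of those tested), and the smallest adjusted p among the neuron genes was 0.190. DESeq2 also called 0 of the 38. At an unadjusted p under 0.05, 6 neuron genes were lower (Fezf2, Tubb3, Stmn3, Crmp1, Snap25 and Gng3), against a background of 5.81% of genes lower, and 1 was higher (Sox5), against 7.94% higher. Both cortices labelled Mboat7-/- lay below both Mboat7+/- cortices for 5 neuron genes (Fezf2, Tubb3, Crmp1, Snap25 and Gng3), where 23.3% of genes tested were ordered this way, and above them for 2 (Sox5 and Onecut1), where the background was 23.1%.

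**Figure D1:**
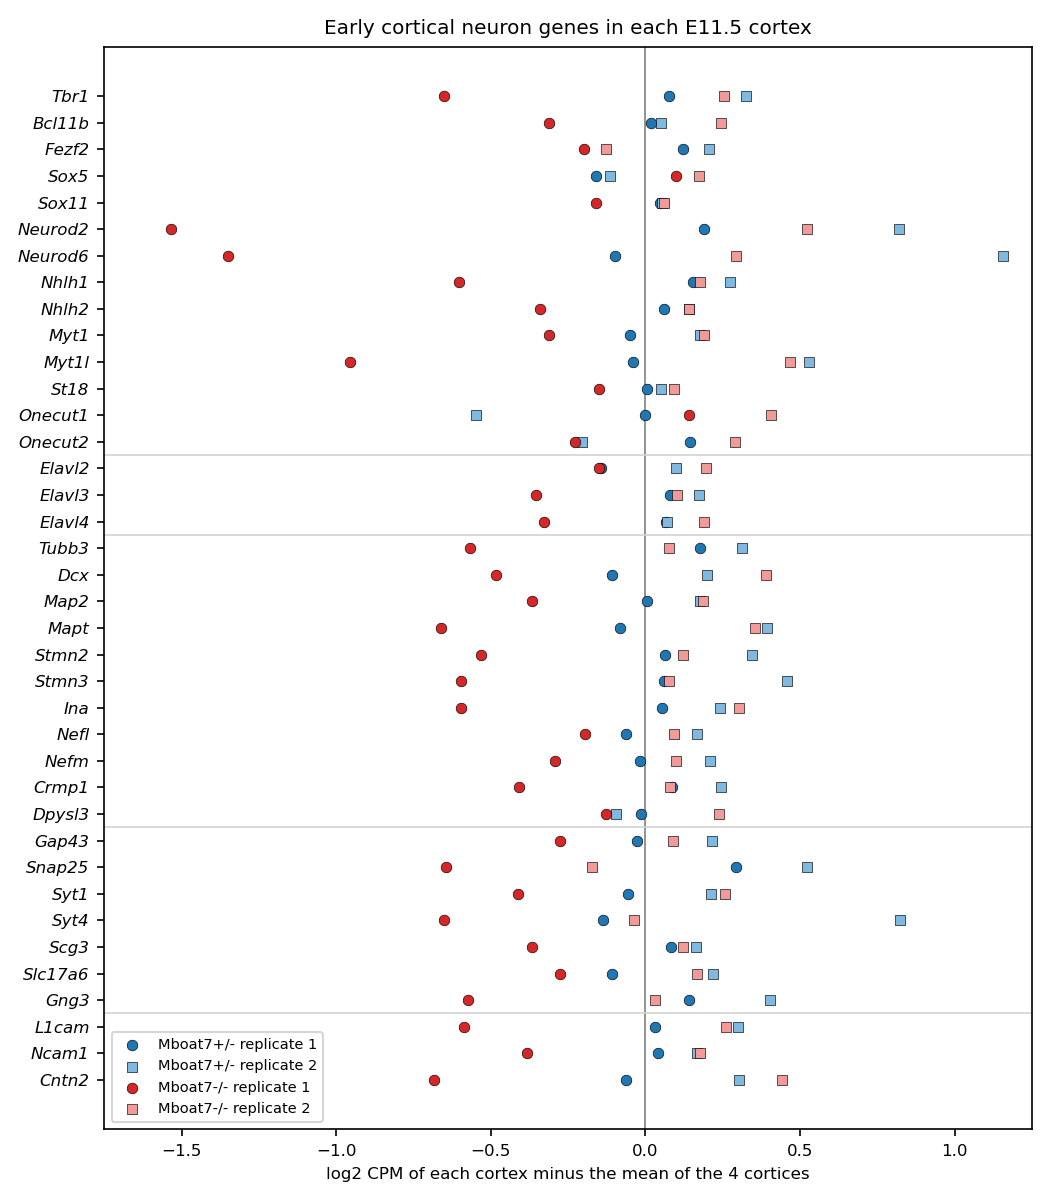
Level of each of the 38 neuron genes in the 4 E11.5 cortices, as log2 CPM minus the mean of the 4 cortices (horizontal axis); each row is a gene and each point a cortex, and grey lines part the 5 classes. Mboat7-/- replicate 1 (dark red circles) is the lowest of the 4 in 36 of 38 genes, while Mboat7-/- replicate 2 (light red squares) is the highest in 16.

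Cortex by cortex, the plot of E11.5 levels shows where the shift lay. Mboat7-/- replicate 1 was the lowest of the 4 cortices in 36 of the 38 neuron genes, where it was the lowest for 28.8% of all genes tested. The summed level of the 38 genes was 5450 and 6004 CPM in the Mboat7+/- cortices and 4087 and 5793 CPM in those labelled Mboat7-/-, so that the groups overlapped. These sums are between 0.410% and 0.598% of all counts. Replicate 1 was below replicate 2 within the genotype labelled Mboat7-/- for 38 of 38 genes and within Mboat7+/- for 35 of 38. Without Mboat7-/- replicate 1, the median turned to 0.056, 14 of 38 genes lay below 0, and 0 were called, where 0.36% of all genes passed the FDR. Without Mboat7-/- replicate 2, the median was -0.491, 36 genes lay below 0 and 28 were called, all lower, where 3.72% of all genes were called lower and 7.7% in either direction. In each of these fits the group labelled Mboat7-/- is a lone cortex, assumed to vary like the controls. Leaving out a Mboat7+/- cortex gave medians of -0.284 (replicate 1) and -0.095 (replicate 2), with 0 called. Without a filter on low counts 3 of the 38 genes were called lower (Gng3, Snap25 and Tubb3), where 0.458% of all genes were.

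The sample titles give a replicate number, and the batch recorded for each cortex equals it. What this batch stands for is not given, so taking same-numbered cortices as pairs is an assumption. Their deviations from the genotype mean correlated at 0.099 across genes at E11.5. In pair 1, 36 of the 38 neuron genes were lower in the cortex labelled Mboat7-/-, with a median log2 ratio of -0.41. In pair 2, 22 were lower, with a median of -0.04. The 22 genes lower in pair 2 were lower in both pairs, where 31.7% of all genes were lower in both. With the batch as a block in the edgeR fit, 7 of the 38 genes passed the FDR, all lower: Stmn3, Gng3, Tubb3, Stmn2, Snap25, Crmp1 and Fezf2, against a background of 0.77% of genes called lower. Once the trend of the counts with gene length and GC content was removed in the blocked fit, none of these 7 passed, nor was any other gene called lower (0.0%). The fold changes of the 7 genes stayed below 0 there, at -0.93 for Snap25 (from -0.81), -0.48 for Stmn2 (from -0.41), -0.43 for Gng3 (from -0.54), -0.38 for Tubb3 (from -0.49) and Stmn3 (from -0.52), -0.37 for Crmp1 (from -0.33) and -0.26 for Fezf2 (from -0.33). The median of the 38 genes was -0.266 with the trend removed and -0.217 without this step, both in the blocked fit, and -0.240 against -0.185 in the unblocked one, with 35 against 33 genes below 0. Blocked values are given beside the unblocked ones below.

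Regulatory sequence is shown for Tubb3, Stmn3 and Fezf2, which were among these 7 genes and stand for a promoter with GC boxes and a TATA-like sequence, a promoter with an E-box, and a layer marker. The 250 bases before the transcription start come from RefSeq (GRCm38.p6), in which 27 of the 38 neuron genes were matched. They lie at chr8:123411303-123411552 on the plus strand for Tubb3, at chr2:181314501-181314750 on the minus strand for Stmn3 and at chr14:12345866-12346115 on the minus strand for Fezf2, and are written 5′ to 3′ along each gene. Capitals mark the GC box GGGCGG, the E-box CAGATG, and the TATA-like sequence TATAA with its reverse complement, which share bases in Tubb3.
Tubb3: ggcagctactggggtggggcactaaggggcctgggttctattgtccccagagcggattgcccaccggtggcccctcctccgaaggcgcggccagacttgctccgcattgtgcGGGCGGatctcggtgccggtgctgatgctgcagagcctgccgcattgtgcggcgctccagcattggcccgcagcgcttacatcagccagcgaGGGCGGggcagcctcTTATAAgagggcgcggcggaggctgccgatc
Stmn3: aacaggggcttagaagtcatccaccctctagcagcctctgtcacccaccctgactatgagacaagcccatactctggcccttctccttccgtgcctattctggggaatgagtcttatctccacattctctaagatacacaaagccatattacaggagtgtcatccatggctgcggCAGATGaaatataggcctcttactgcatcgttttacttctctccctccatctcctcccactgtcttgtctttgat
Fezf2: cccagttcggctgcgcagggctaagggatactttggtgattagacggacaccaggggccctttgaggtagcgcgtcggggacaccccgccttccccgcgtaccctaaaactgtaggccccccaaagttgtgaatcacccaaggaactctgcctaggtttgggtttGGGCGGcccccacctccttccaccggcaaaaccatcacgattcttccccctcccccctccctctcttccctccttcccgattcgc
The 30 bases after the start were found in a transcript of the gene for 20 of the 27, Tubb3, Stmn3 and Fezf2 among them. The shares that follow are over all 27. Searched on both strands, GGGCGG was found in 14 of 27 neuron gene promoters (51.9%) and in 32.7% of all 32851 promoters of this length. CAGATG, a form of the E-box that proneural factors bind, was found in 6 of 27 (22.2%; L1cam, Myt1l, Neurod2, Nhlh1, Nhlh2 and Stmn3) and in 14.4% of all. CAGCTG, an E-box that reads the same on both strands, was found in 3 of 27 (11.1%) and in 13.0% of all. TATAA was found in 3 (Dcx, Elavl3 and Tubb3; 11.1%), against 22.8% of all promoters. The letters TTCAGCACC, a part of the element that the repressor REST binds, were in 0 of 27 and in 0.301% of all.

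Among the transcription factors at E11.5, Fezf2 lay lower in both cortices labelled Mboat7-/- and Sox5 higher. Fezf2, a zinc finger factor that specifies subcerebral projection neurons, stood at 78.1 and 82.9 CPM in the Mboat7+/- cortices and at 62.6 and 65.7 CPM in those labelled Mboat7-/-. The groups did not overlap (log2 fold change -0.33, SE 0.08, edgeR adjusted p = 0.190, and 0.0453 with the block). Without Mboat7-/- replicate 1 the Fezf2 difference was -0.29. Sox5, which controls the order in which deep-layer neurons are made, was at 51.3 and 53.0 CPM against 61.4 and 64.6 CPM, again without overlap and in the opposite direction (log2 fold change 0.27, SE 0.08, edgeR adjusted p = 0.233). Removing the length and GC trend brought Sox5 to 0.11.

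The basic helix-loop-helix factors Neurod6 and Neurod2, which come on in postmitotic pyramidal neurons, had the lowest fold changes of the class and the widest spread. Neurod6 was at 4.29 and 10.2 CPM in the Mboat7+/- cortices and at 1.80 and 5.63 CPM in those labelled Mboat7-/- (log2 fold change -0.98, SE 0.54, edgeR adjusted p = 0.464). Neurod2 was at 11.4 and 17.7 CPM against 3.47 and 14.4 CPM (log2 fold change -0.72, SE 0.52, edgeR adjusted p = 0.579). In both genes replicate 2 was above replicate 1 within each genotype, and the groups overlapped. Tbr1, the T-box factor of preplate and layer VI neurons, was at 104 and 124 CPM against 62.9 and 118 CPM (log2 fold change -0.34, SE 0.24, edgeR adjusted p = 0.564). Bcl11b, a zinc finger factor of layer V neurons, was at 78.2 and 79.9 CPM against 62.2 and 91.3 CPM, and its cortices labelled Mboat7-/- lay on either side of the controls (log2 fold change -0.04, SE 0.15). The other 8 factors had log2 fold changes between -0.38 (Nhlh1) and 0.53 (Onecut1), and none was called. Onecut1 was close to the depth limit, with counts between 36 and 65.

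The RNA-binding proteins Elavl2, Elavl3 and Elavl4 are neuronal Hu proteins that bind AU-rich messages and steer splicing. Elavl3, the most abundant per kilobase of the 3, was at 312 and 333 CPM in the Mboat7+/- cortices and at 231 and 317 CPM in those labelled Mboat7-/-. Only replicate 1 of the latter lay below both controls (log2 fold change -0.23, SE 0.13, edgeR adjusted p = 0.459). Elavl4 was at 97.6 and 97.8 CPM against 74.3 and 106 CPM (log2 fold change -0.12, SE 0.14). Elavl2 was at 49.0 and 58.1 CPM against 48.8 and 62.1 CPM, a difference smaller than the spread within either genotype (log2 fold change 0.05, SE 0.13).

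In the cytoskeletal class, 10 of 11 genes had a log2 fold change below 0 at E11.5, and 3 of them, Tubb3, Stmn3 and Crmp1, had an unadjusted p under 0.05. Tubb3, the neuron-specific beta tubulin, was at 929 and 1022 CPM in the Mboat7+/- cortices and at 555 and 867 CPM in those labelled Mboat7-/-. Both of the latter lay below both controls (log2 fold change -0.46, SE 0.17, edgeR adjusted p = 0.296, and 0.0208 with the block). Without Mboat7-/- replicate 1 the Tubb3 difference was -0.17. Stmn3, a stathmin that destabilizes microtubules, was at 104 and 137 CPM against 66.1 and 105 CPM. Its groups overlapped, since Mboat7-/- replicate 2 was level with Mboat7+/- replicate 1 (log2 fold change -0.50, SE 0.20, edgeR adjusted p = 0.328, and 0.00978 with the block), and without Mboat7-/- replicate 1 the value was -0.20. Crmp1, a collapsin response mediator protein that acts in axon guidance, was at 382 and 427 CPM against 272 and 380.4 CPM (log2 fold change -0.31, SE 0.14, edgeR adjusted p = 0.362, and 0.0403 with the block), and without that cortex -0.09.

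Stmn2, a stathmin of growing axons, was at 162 and 197 CPM in the Mboat7+/- cortices and at 107 and 169 CPM in those labelled Mboat7-/- (log2 fold change -0.38, SE 0.18, edgeR adjusted p = 0.409, and 0.0309 with the block). The groups overlapped, the call rested on the block, and without Mboat7-/- replicate 1 the value was -0.09. Dcx, the microtubule-binding protein doublecortin of migrating neurons, was at 209 and 258 CPM against 161 and 295 CPM. Its lowest and its highest value were thus both in cortices labelled Mboat7-/- (log2 fold change -0.04, SE 0.23). Map2 and Mapt, which bind microtubules in dendrites and axons, had log2 fold changes of -0.16 and -0.25, and the intermediate filament genes Ina, Nefl and Nefm had values of -0.23, -0.10 and -0.19, with none called. Dpysl3, another member of the collapsin response mediator family, was the only gene of the class above 0, at 0.12.

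All 7 genes of the growth cone, vesicle and signalling class had a log2 fold change below 0 at E11.5. Snap25, a membrane fusion protein of the synaptic terminal, was at 16.7 and 19.6 CPM in the Mboat7+/- cortices and at 8.74 and 12.1 CPM in those labelled Mboat7-/-. The groups did not overlap, and the difference was the second lowest of the 38 genes (log2 fold change -0.80, SE 0.20, edgeR adjusted p = 0.194, and 0.0319 with the block). It was -0.59 without Mboat7-/- replicate 1. Gng3, a gamma subunit of heterotrimeric G proteins in neurons, was at 61.6 and 73.8 CPM against 37.5 and 57.1 CPM. It too kept the groups apart (log2 fold change -0.52, SE 0.18, edgeR adjusted p = 0.275, and 0.0191 with the block), and without Mboat7-/- replicate 1 its value was -0.25. Syt4, a synaptotagmin of vesicles, was at 9.14 and 17.8 CPM against 6.40 and 9.80 CPM, and the groups overlapped (log2 fold change -0.74, SE 0.33, edgeR adjusted p = 0.365). Slc17a6, the vesicular glutamate transporter of early excitatory neurons, was at 34.8 and 43.7 CPM against 31.0 and 42.1 CPM, with no difference beyond the spread (log2 fold change -0.11, SE 0.17). Gap43, Syt1 and Scg3, a growth cone protein, a vesicle calcium sensor and a granin of secretory granules, lay between -0.23 and -0.13.

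The adhesion molecules are immunoglobulin-family proteins of axons, and all 3 were lowest in Mboat7-/- replicate 1 at E11.5. L1cam, which guides axon bundles, was at 55.5 and 66.9 CPM in the Mboat7+/- cortices and at 36.2 and 65.1 CPM in those labelled Mboat7-/- (log2 fold change -0.28, SE 0.23, edgeR adjusted p = 0.631). Ncam1, a broadly used neural adhesion molecule, was at 121 and 131 CPM against 89.8 and 132 CPM (log2 fold change -0.18, SE 0.15). Cntn2, a contactin of early axons, was at 93.8 and 121 CPM against 61.0 and 133 CPM (log2 fold change -0.15, SE 0.29). In each of these genes Mboat7-/- replicate 2 was level with or near the higher control.

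At E12.5 no neuron gene passed the FDR, and most lay slightly above 0. The median log2 fold change was 0.069 over the 38 genes and 0.005 over the 16326 genes tested. It was below 0 for 9 of the 38, against 48.8% of all genes. Of all genes 0.0184% were called, none of them a neuron gene, with edgeR or, among the 38, with DESeq2, and the smallest adjusted p of a neuron gene was 0.958. At an unadjusted p under 0.05, 2 neuron genes were higher (Neurod6 and Gng3), where 2.76% of genes were higher, and 0 were lower, where 1.35% were lower. In 9 neuron genes (Bcl11b, Fezf2, Sox5, Neurod6, Elavl2, Stmn2, Gap43, Slc17a6 and Gng3) both cortices labelled Mboat7-/- lay above both controls, against a background of 16.9%. In 2, Nhlh2 and Tubb3, they lay below, against 15.2%.

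**Figure D2:**
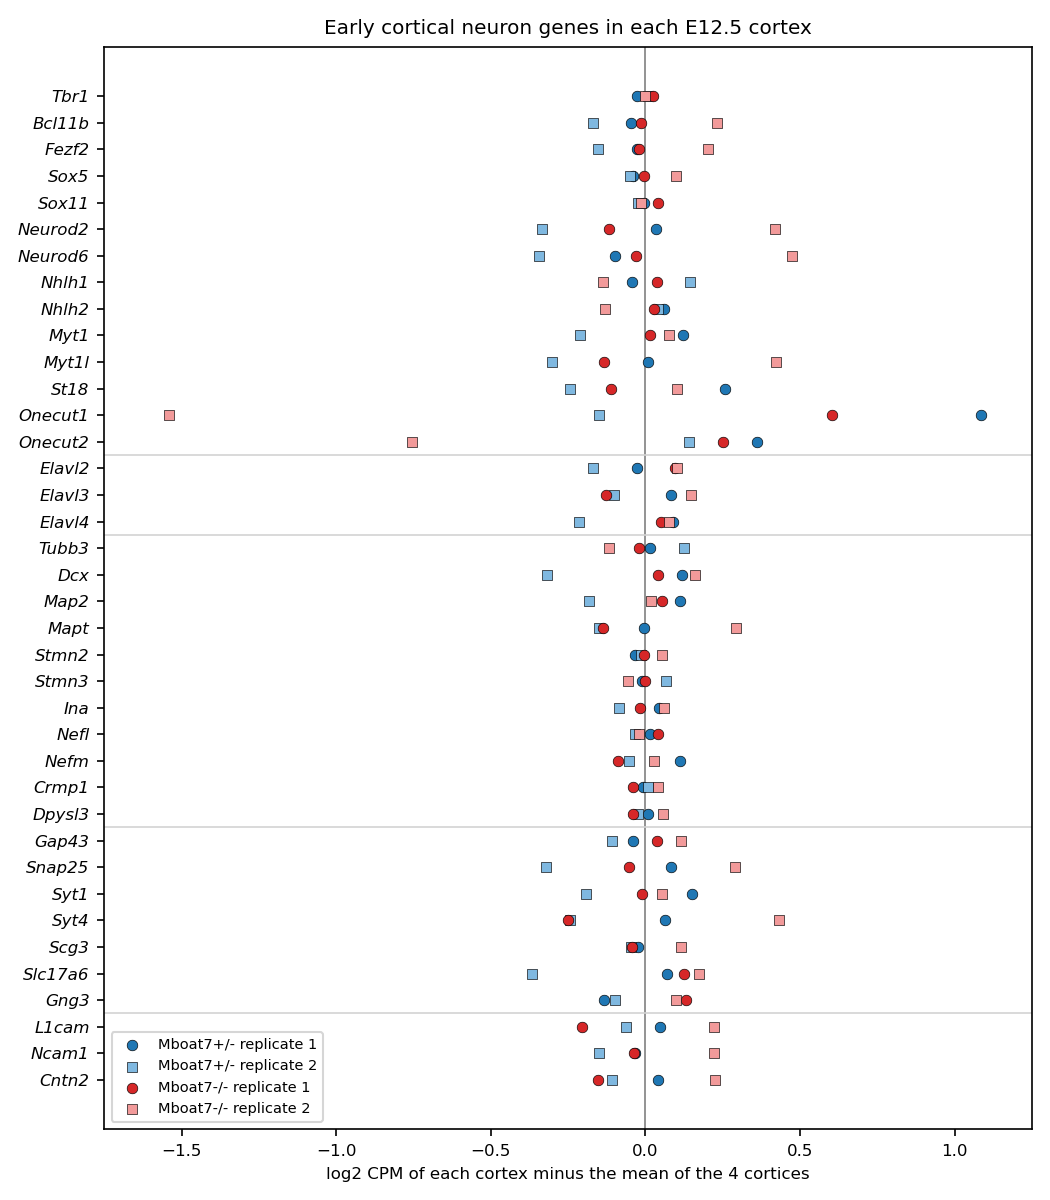
Level of each of the 38 neuron genes in the 4 E12.5 cortices, as log2 CPM minus the mean of the 4 cortices (horizontal axis, on the same scale as for E11.5); each row is a gene and each point a cortex. The points lie closer together than at E11.5, with Mboat7+/- replicate 2 (light blue squares) lowest in 22 genes and Mboat7-/- replicate 2 (light red squares) highest in 22.

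The spread between the cortices of a genotype was smaller at E12.5: the pooled SD of the mean log2 CPM of the 38 genes was 0.095, against 0.327 at E11.5. The summed level was 9462 and 8974 CPM in the Mboat7+/- cortices and 9276 and 9682 CPM in those labelled Mboat7-/-, from 0.873% to 1.00% of all counts. Mboat7+/- replicate 2 was the lowest cortex for 22 of the 38 genes, where it was the lowest for 31.0% of all genes, and Mboat7-/- replicate 2 the highest for 22, against 33.2% of all. The difference thus lay mostly between these replicate 2 cortices: the median log2 ratio was -0.04 in pair 1 and 0.23 in pair 2. Leaving out Mboat7+/- replicate 1 or replicate 2 gave medians of 0.170 and 0.007, and leaving out Mboat7-/- replicate 1 or replicate 2 gave 0.134 and 0.017. Without Mboat7-/- replicate 1, 5 neuron genes were called: Syt4, Neurod6, Neurod2 and Myt1l higher, where 1.26% of all genes were called higher, and Onecut2 lower, where 0.503% were called lower. In that fit the lone cortex labelled Mboat7-/- is assumed to vary like the controls. With the pairing crossed, 1 neuron gene (Neurod6) was called higher, where 0.533% of all genes were. Removing the length and GC trend brought the E12.5 median to 0.007.

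Of the transcription factors at E12.5, Neurod6 had the highest fold change. It was at 95.5 and 80.5 CPM in the Mboat7+/- cortices and at 100.1 and 142 CPM in those labelled Mboat7-/-. The groups did not overlap, by a narrow margin (log2 fold change 0.46, SE 0.15, edgeR adjusted p = 0.958), and the value was 0.19 without Mboat7-/- replicate 2. Bcl11b was at 200.1 and 184 CPM against 205 and 242 CPM (log2 fold change 0.22, SE 0.11, edgeR adjusted p = 0.958). Neurod2 was at 66.3 and 51.4 CPM against 59.7 and 86.5 CPM, with overlap (log2 fold change 0.31, SE 0.17). Tbr1 was nearly level, at 203 and 208 CPM against 210.0 and 206 CPM (log2 fold change 0.02, SE 0.09). The lowest value of the class was that of Onecut1, at -0.68 with an SE of 0.63 on counts between 6 and 34.

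Elavl2 was at 94.7 and 85.8 CPM in the E12.5 Mboat7+/- cortices and at 103 and 104 CPM in those labelled Mboat7-/- (log2 fold change 0.20, SE 0.09, edgeR adjusted p = 0.958). It was the only Elavl gene without overlap. Elavl3 was at 273 and 240.0 CPM against 236 and 286 CPM (log2 fold change 0.02, SE 0.12), and Elavl4 at 129 and 104 CPM against 126 and 128 CPM (log2 fold change 0.12, SE 0.11).

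The cytoskeletal genes at E12.5 had log2 fold changes between -0.14 and 0.18. Tubb3, at 1420 and 1534 CPM in the Mboat7+/- cortices and at 1387 and 1295 CPM in those labelled Mboat7-/-, was the lowest of them and kept the groups apart (log2 fold change -0.14, SE 0.12, edgeR adjusted p = 0.958). Dcx was at 616 and 455 CPM against 583 and 634 CPM (log2 fold change 0.18, SE 0.14), and Mapt at 223 and 202 CPM against 204 and 274 CPM (log2 fold change 0.17, SE 0.14). In both, the low value of Mboat7+/- replicate 2 and the high value of Mboat7-/- replicate 2 set the difference. Stmn2 was at 281 and 284 CPM against 286 and 298 CPM, a small difference without overlap (log2 fold change 0.05, SE 0.10).

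Every gene of the growth cone, vesicle and signalling class was above 0 at E12.5, from 0.03 (Syt1) to 0.28 (Slc17a6). Gng3 was at 96.4 and 98.8 CPM in the Mboat7+/- cortices and at 116 and 113 CPM in those labelled Mboat7-/-. The groups did not overlap (log2 fold change 0.23, SE 0.09, edgeR adjusted p = 0.958). Slc17a6 was at 46.8 and 34.6 CPM against 48.7 and 50.3 CPM (log2 fold change 0.28, SE 0.13), and Gap43 at 127 and 121 CPM against 134 and 141 CPM (log2 fold change 0.15, SE 0.09). The adhesion genes overlapped between genotypes. L1cam was at 75.4 and 69.9 CPM against 63.3 and 85.2 CPM, Ncam1 at 159 and 146 CPM against 158 and 189 CPM, and Cntn2 at 148 and 134 CPM against 130 and 168 CPM, with log2 fold changes of 0.03, 0.19 and 0.08.

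**Figure D3:**
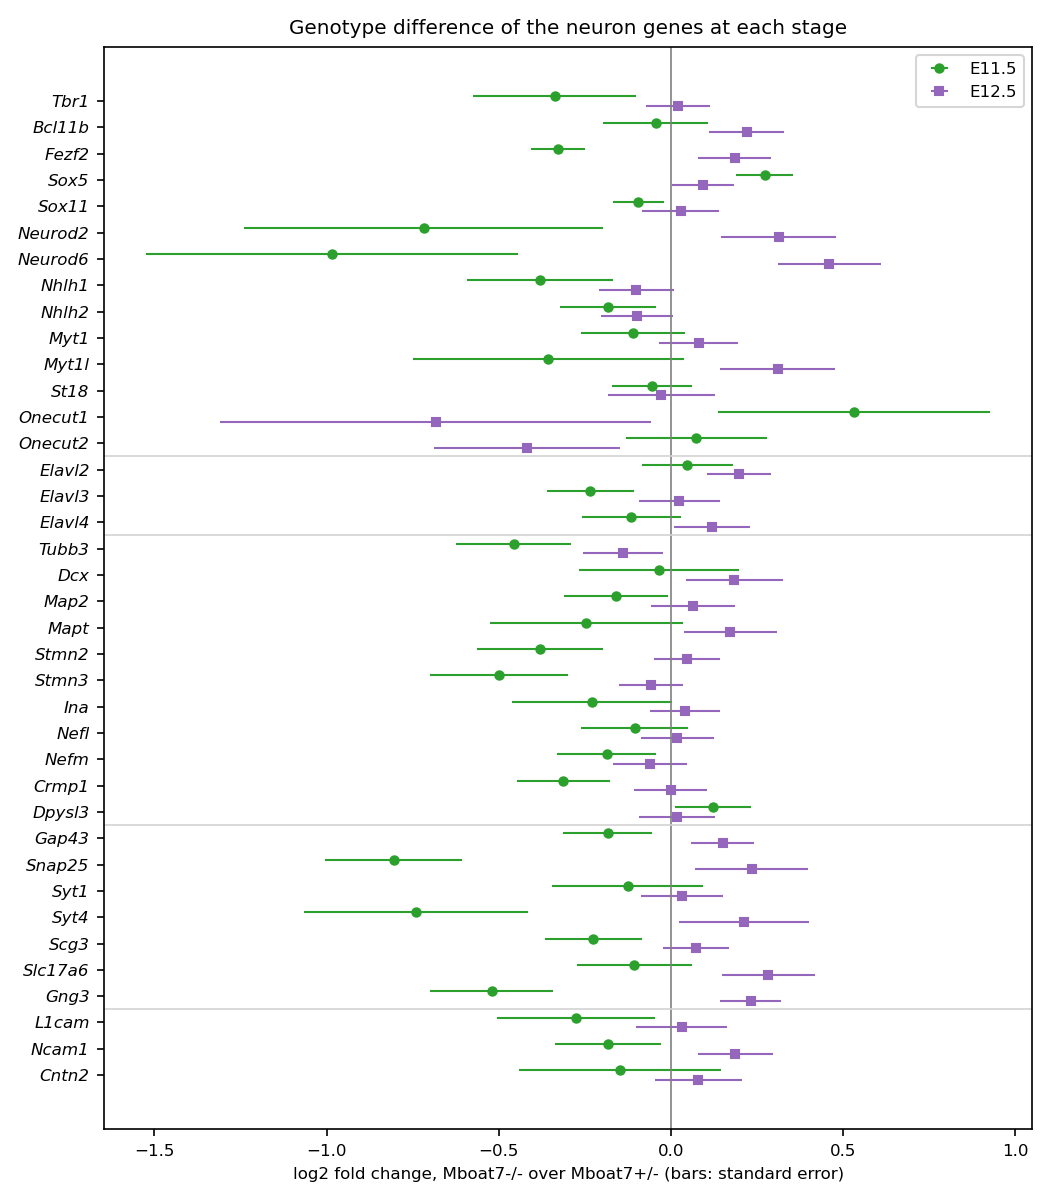
Log2 fold change of each neuron gene, cortices labelled Mboat7-/- over Mboat7+/-, at E11.5 (green circles) and E12.5 (purple squares); bars are standard errors from the edgeR fit of each stage, with 2 cortices per genotype. At E11.5 33 of 38 points lie left of 0 and at E12.5 29 lie right of it, and no gene passed an FDR of 0.05 at either stage.

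Whether the genotype difference changed with stage was tested with an interaction term over all 8 cortices and the 15003 genes tested from both tables. Stage and sequencing provider changed together, so the test cannot part them. The change, E12.5 minus E11.5, was above 0 for 34 of the 38 neuron genes, with a median of 0.274 on the log2 scale, against 0.004 over all genes. No neuron gene passed the FDR, nor did any gene (0.0%), and the smallest adjusted p of edgeR among the 38 was 0.593, for Snap25, and DESeq2 also called 0 of the 38. At an unadjusted p under 0.05, 5 neuron genes changed upward (Neurod6 by 1.49, Snap25 by 1.04, Syt4 by 0.96, Gng3 by 0.75 and Fezf2 by 0.51), where 2.63% of all genes did so, and 0 downward, where 3.07% did so. Without the E11.5 Mboat7-/- replicate 1 the median was -0.019, and without the E11.5 Mboat7-/- replicate 2 it was 0.571, with 8 genes called, all upward, where 0.539% of all genes were called upward in a fit whose E11.5 group labelled Mboat7-/- is 1 cortex. In the plot of fold changes at both stages, Neurod6, Onecut1, Neurod2, Snap25 and Syt4 lie farthest apart.

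Levels at the 2 stages stand side by side without a test. The sequencing provider, the instrument and the annotation changed with stage and cannot be told apart from it. Over 14790 genes with counts at both stages, the median ratio of the E12.5 to the E11.5 mean CPM was 0.850, and over the 38 neuron genes it was 1.60. In 24 neuron genes every E12.5 cortex lay above every E11.5 cortex, where 19.0% of all genes did, and in 2, Nhlh2 and Onecut2, every E12.5 cortex lay below, where 43.1% did. The stages overlapped for the other 12. Neurod6 showed the largest ratio, from a mean of 5.49 CPM to 104.5 CPM (19.0-fold). Dpysl3 was 5.99-fold, Neurod2 5.61-fold, Syt4 4.26-fold and Myt1l, a zinc finger repressor of other fates in neurons, 3.25-fold higher in the E12.5 libraries. Nhlh2, a helix-loop-helix factor of newborn neurons, was at 0.511 of its E11.5 level. Per kilobase of exon, Tubb3 was the most abundant neuron gene at both stages, at 451.5 CPM per kilobase at E11.5 and 754 at E12.5, followed by Sox11 at 143 and 181 and Stmn3 at 90.9 and 169. Onecut1 was the least abundant, at 0.497 and 0.229.

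**Figure D4:**
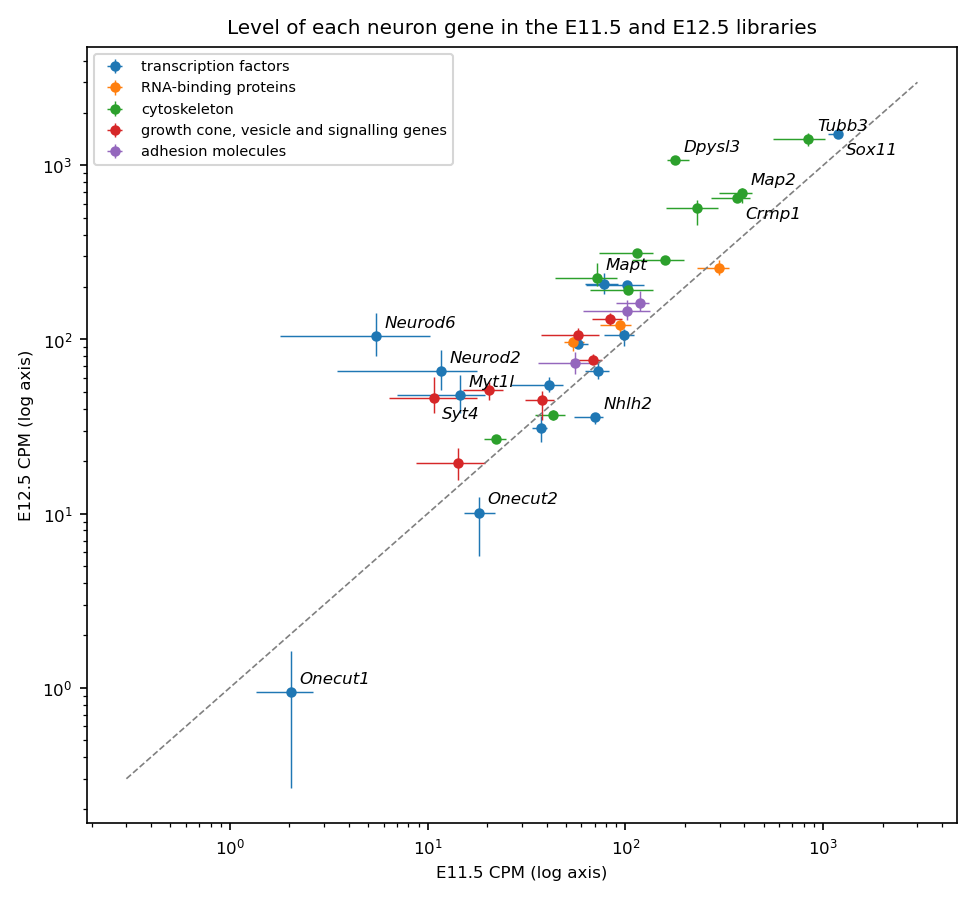
Mean CPM of each neuron gene in the 4 E11.5 cortices (horizontal) and the 4 E12.5 cortices (vertical), both on log axes; bars run from the lowest to the highest cortex, colours give the class, and the dashed line marks equal levels. Neurod6, at 5.49 and 104.5 CPM, lies farthest above the line, and Nhlh2, Onecut1 and Onecut2 lie farthest below it. Fezf2, Elavl3, Nefm and St18 also lie below the line, nearer to it.

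Lists of genes of other neurons, progenitors and other cell types give the setting of these values, and no gene of any of them passed the FDR in the unblocked fit at either stage. At E11.5 the 25 tested of 26 other pan-neuronal genes had a median log2 fold change of -0.285, and 23 lay below 0. Basp1, a growth cone protein and the most abundant of them, was at 851 and 883 CPM in the Mboat7+/- cortices and at 643 and 850.0 CPM in those labelled Mboat7-/-. The 11 proneural and intermediate progenitor genes were all below 0 (median -0.251), among them Neurog2, the proneural factor of the dorsal telencephalon, at 148 and 161 CPM against 105 and 151 CPM. The 15 radial glial genes had a median of -0.115 with 11 below 0, the 9 Cajal-Retzius genes -0.056 with 6 below 0, the 13 ventral telencephalic genes -0.319 with 11 below 0, and 13 tested genes of neurons outside the telencephalon -0.130 with 8 below 0. At an unadjusted p under 0.05, where 5.81% of all genes were lower and 7.94% higher, 5 of the pan-neuronal, 4 of the proneural and progenitor, 4 of the radial glial and 1 of the Cajal-Retzius genes were lower and 0 higher, and 3 ventral genes were lower and 1 higher. With the batch block, 4 of the pan-neuronal genes (Mllt11, Nsg2, Rtn1 and Uchl1), 2 proneural and progenitor genes (Eomes and Gadd45g), 2 radial glial genes (Emx1 and Lhx2) and 1 ventral gene (Dlx2) were called lower at E11.5, where 0.77% of all genes were.

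**Figure D5:**
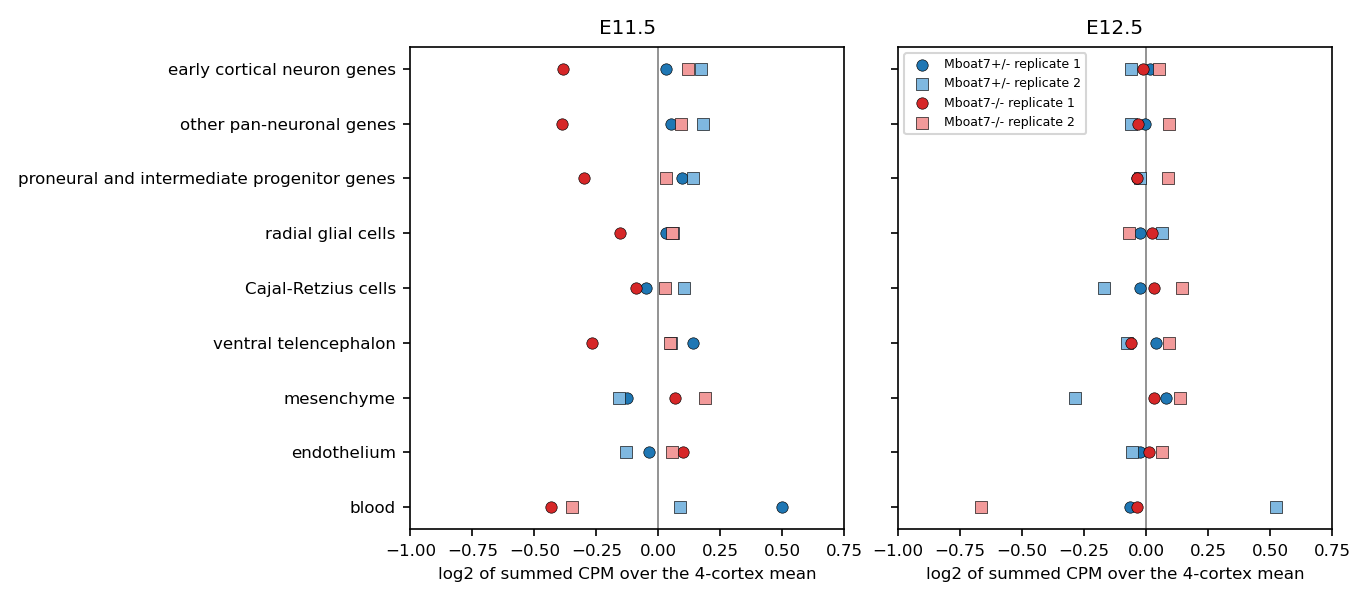
Summed CPM of the 38 neuron genes and of 8 lists of other genes in each cortex, as log2 of the ratio to the mean of the 4 cortices of the stage (horizontal axis), for E11.5 (left) and E12.5 (right). At E11.5 Mboat7-/- replicate 1 (dark red circles) is lowest for the neuron genes and for the other neuronal, proneural, radial glial, Cajal-Retzius and ventral lists. At that stage the mesenchyme and endothelium lists are higher and the blood list lower in both cortices labelled Mboat7-/-. At E12.5 the mesenchyme and blood lists overlap between the genotypes.

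Genes of other tissues moved with the groups too. The 10 mesenchyme genes had a median of 0.265 at E11.5, with 9 above 0, and their summed level was 1694 and 1658 CPM in the Mboat7+/- cortices and 1937 and 2107 CPM in those labelled Mboat7-/-. At an unadjusted p under 0.05, 7 of them were higher and 0 lower, where 7.94% of all genes were higher. With the block, 4 of them (Col3a1, Foxc1, Pdgfra and Postn) were called higher, where 1.57% of all genes were. The 8 endothelial genes had a median of 0.192, with 7 above 0 and 1 at an unadjusted p under 0.05. The 9 tested of 10 blood genes were all below 0 (median -0.565), with sums of 6993 and 5254 CPM against 3666 and 3895 CPM. Hba-a1, an adult globin of that list, was listed at 0 in the 4 E11.5 cortices, and Hbb-y, an embryonic globin, was at 3328 and 2723 CPM against 1672 and 1920 CPM. At an unadjusted p under 0.05, 8 of the blood genes were lower, where 5.81% of all genes were. With the block, Alas2, Hba-x, Hbb-bh1 and Hbb-y were called lower, where 0.77% of all genes were. The summed mesenchyme level was highest in Mboat7-/- replicate 2, while the neuron genes were lowest in replicate 1, and single genes of the list differed. In Mboat7-/- replicates 1 and 2, Pdgfra was at 119 and 91.2 CPM and Foxc1 at 96.0 and 62.2 CPM. Col3a1 was at 762 and 764.5 CPM in these cortices, and Postn at 18.4 and 20.65 CPM. The part of these tissues in the values of the neuron genes was not tested.

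At E12.5 the medians were 0.060 for the other pan-neuronal genes (19 of 25 above 0), 0.038 for the proneural and progenitor genes (8 of 11 above 0), -0.036 for the radial glial genes, -0.062 for the Cajal-Retzius genes, 0.098 for the ventral telencephalic genes, -0.038 for neurons outside the telencephalon, 0.178 for mesenchyme and 0.053 for endothelium. The 9 tested blood genes were again all below 0 (median -0.573), with sums of 3824 and 5737 CPM in the Mboat7+/- cortices and 3895 and 2521 CPM in those labelled Mboat7-/-. Blood was thus highest in Mboat7+/- replicate 2, the cortex where most neuron genes were lowest, and lowest in Mboat7-/- replicate 2, where most were highest. Whether blood content bears on the E12.5 neuron gene values was not tested.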

How the data were processed

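RNA from whole cortices was poly(A)-selected with a directional kit and sequenced, with a different provider and instrument for each stage. The authors deposited raw counts of reads per gene, 1 table per stage. The submitters' processing notes name HISAT2, Subread, mm10 and GRCm39 without saying which served which table; the annotation and the strand setting of the counting are not given in the sources used here. The E12.5 identifiers were given symbols through a table of gene names, and 22836 genes are in both tables. The 2 cortices per genotype and stage are separate embryos by their labels, and no pair differed by as little as sampling noise (chi-square per degree of freedom at least 4.69).

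The 4 cortices of a stage entered a fit of their own in edgeR 4.0.16 (R 4.3.3), with TMM scaling, low counts filtered by filterByExpr (minimum 10) and a prior count of 0.125. Its quasi-likelihood p-values were adjusted by Benjamini-Hochberg over all genes tested, with calls at an FDR under 0.05. CPM uses TMM library sizes. All 38 genes passed the filter at both stages. A further fit over the 8 cortices tested the interaction of stage and genotype. The scripts were tested on simulated counts. Alternatives were other scalings and filters, DESeq2 1.42.0, a length and GC trend (GENCODE gene models), the replicate block and leaving out each cortex.

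The batch recorded for a cortex equals its replicate number, and pairing cortices by this number is an assumption. No crossed pairing was run at E11.5. The deviations from the genotype mean correlated, across genes, at 0.099 between cortices of 1 batch at E11.5 and at -0.246 at E12.5. The genes and lists were chosen with earlier results of these data known. Values in every cortex are given for any gene with an FDR under 0.05 in the unblocked fits, for the 3 genes of smallest p in each class and stage, and for Tubb3, Dcx, Tbr1, Bcl11b, Neurod2, Stmn2 and Slc17a6. Genes of the other lists are named as the most abundant or smallest p of their list, or were named after their values were seen: Hba-a1, Xist and those called with the block.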

Additional observations from a re-analysis of the deposited data

Results flagged for a closer look

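Fezf2 and Gng3 lay on opposite sides of the controls at the 2 stages: both cortices labelled Mboat7-/- were below both Mboat7+/- cortices at E11.5 and above both at E12.5. Of all genes tested, 23.3% were ordered lower at E11.5 and 16.9% higher at E12.5. The share ordered in both ways was not counted. For Fezf2 the E12.5 margin was narrow, at 64.35 and 58.92 CPM in the Mboat7+/- cortices against 64.66 and 75.52 CPM. The genotype difference at E12.5 minus that at E11.5 was 0.511 on the log2 scale for Fezf2 (SE 0.14, edgeR interaction test, adjusted p = 0.596) and 0.750 for Gng3 (SE 0.22, adjusted p = 0.697), so that neither passed the threshold. Without the E11.5 Mboat7-/- replicate 1 each value was 0.463.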

How the results depend on the processing

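No neuron gene was called at either stage or for the interaction in the unblocked fits, nor with RLE scaling, DESeq2 or at least 10 counts in every cortex. At E11.5 the number called was 3 without a filter on low counts (0.458% of all genes lower), 7 with the replicate block, and from 0 to 28 when a cortex was left out, with 28 only without Mboat7-/- replicate 2. With the replicate block at E12.5 and for the interaction the count stayed at 0. At E12.5 it was from 0 to 5 when a cortex was left out. Deviations at E12.5 were negatively correlated between same-numbered cortices, so a crossed pairing was added after the data were seen; it called 1 gene (0.533% of all genes higher). The median at E12.5 ranged from 0.007 to 0.170 when a cortex was left out. For the interaction, leaving out a cortex gave from 0 to 8 calls. The cause of these changes was not tested. Without the E11.5 Mboat7-/- replicate 1, 19 of 38 genes changed the sign of their E11.5 fold change and 17 that of the interaction; with the length and GC trend removed, 2 did at E11.5 and 9 at E12.5. Detection of differences under 1 log2 unit, or in low-count genes such as Onecut1 (counts from 6 to 65), was not tested.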
